A study of Mus musculus with 6 samples.

Results

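The genes described here are 5 sodium-hydrogen exchangers and 3 PDZ scaffolds, measured in colon with and without the exchanger NHE3. The exchangers are Slc9a2 (NHE2), Slc9a3 (NHE3), Slc9a4 (NHE4), Slc9a7 (NHE7) and Slc9a8 (NHE8). The scaffolds are Slc9a3r1 (NHERF1), Slc9a3r2 (NHERF2) and Pdzk1 (NHERF3). Members were the 8 genes by name, each read by the probe sets whose platform annotation gives that gene alone: 19 of the 45101 probe sets on the array, for 8 of 18194 genes with a probe set of their own. A probe set is a group of short oligonucleotides that together read 1 transcript. Total RNA of whole colon was hybridised to single-label mouse arrays, 1 array per sample. The 3 NHE3+/+ arrays came from wild-type littermates and the 3 NHE3-/- arrays from mice lacking NHE3, all aged 6 to 8 weeks. Strain, sex, the disrupted stretch of Slc9a3 and the number of animals behind an array are not given in any source used here. P-values therefore measure the spread between these arrays, which may be technical.

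Sodium-hydrogen exchangers move a sodium ion into the cell or organelle lumen in return for a proton. In the gut, NHE2, NHE3 and NHE8 sit in the apical membrane of epithelial cells, where NHE3 works beside chloride-bicarbonate exchangers to absorb salt and, with it, water. NHE4 is best known from the basolateral membrane of gastric parietal cells, and NHE7 from the trans-Golgi network. The NHERF proteins carry PDZ domains that hold the tail of NHE3 and other membrane proteins, and NHERF1 and NHERF2 also bind ezrin and so tie their cargo to the actin cytoskeleton. The question was whether other exchangers, or the scaffolds, differ when NHE3 is lost.

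The stretches before the annotated starts of NHE3 and of the scaffolds whose signal differed are shown first, since NHERF1 and NHERF2 moved in opposite directions. Each is the 250 bases upstream of a RefSeq start (GRCm38.p6), written in the direction of transcription, with capitals marking GGGCGG or its reverse complement CCGCCC, the core of the GC box bound by Sp1.
Slc9a3, chr13:74121163-74121412, forward strand: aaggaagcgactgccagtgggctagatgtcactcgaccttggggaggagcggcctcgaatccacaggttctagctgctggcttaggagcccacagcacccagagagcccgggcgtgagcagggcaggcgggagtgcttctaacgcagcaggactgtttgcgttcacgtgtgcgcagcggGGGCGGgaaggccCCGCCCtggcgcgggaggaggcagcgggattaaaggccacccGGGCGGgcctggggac
Slc9a3r1, chr11:115163091-115163340, forward strand: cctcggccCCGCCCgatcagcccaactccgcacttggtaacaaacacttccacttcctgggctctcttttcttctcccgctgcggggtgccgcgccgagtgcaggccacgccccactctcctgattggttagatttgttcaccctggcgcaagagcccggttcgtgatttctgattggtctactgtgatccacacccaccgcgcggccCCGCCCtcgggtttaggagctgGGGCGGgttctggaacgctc
Slc9a3r2, chr17:24650306-24650555, reverse strand: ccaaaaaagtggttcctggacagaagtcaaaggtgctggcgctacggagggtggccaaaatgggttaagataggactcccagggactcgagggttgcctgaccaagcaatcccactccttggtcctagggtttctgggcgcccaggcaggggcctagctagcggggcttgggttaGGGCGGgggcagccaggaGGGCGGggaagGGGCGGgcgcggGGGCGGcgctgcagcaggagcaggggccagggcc
Slc9a3 held 3 such GC boxes, Slc9a3r1 3 and Slc9a3r2 4, so the riser and the faller shared the motif in the windows shown. Over 32851 annotated windows of this length, 32.7% held at least 1. The GC content was 67.6%, 62.8% and 66.4% in that order, against a median of 52.4%. Neither AGAACA (the half-site of corticosteroid receptors, in 16.1% of windows), TATAAA (the TATA box, in 12.4%) nor GTTAAT (an HNF1 half-site, in 6.4%) occurred on either strand of the 3 windows. These matches describe letters, not binding. A second annotated start of Slc9a3r2 held 0, and which start was used in these colons was not tested. The annotated span of Slc9a3 begins at chr13:74086255, upstream of the window shown, which is therefore not at the outer end of the gene. Slc9a7 held 3 and Slc9a8 2. The windows of Pdzk1 held 1 and 0, with a GC content of 53.2% and 50.8%, near the median. Of the 8 members, 6 had a window in this table.

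On these arrays 2 of the 3 scaffolds differed between genotypes by at least 1 probe set, and most exchangers did not pass the test. NHERF1 rose and NHERF2 fell in NHE3-/- colon, 1 of 4 probe sets of NHE8 fell, and NHE2, NHE7 and both probe sets of NHE3 were not called. NHERF3 and NHE4 were too dim to be tested. Called means an adjusted p under 0.05 in limma (Benjamini-Hochberg over all 27024 probe sets tested). Of the 19 member probe sets, 17 passed the filter on dim values. Of these 17, 6 were called, 2 higher and 4 lower, and they came from 3 genes. Over all probe sets tested, 11.2% were called, 4.97% higher and 6.24% lower. By the 1 brightest probe set of each gene, 13.9% of all genes tested were called. Among the members, that rule called Slc9a3r2 alone (1439368_a_at, adjusted p = 0.0235). It did not call Slc9a3r1 (1438115_a_at, adjusted p = 0.0681) or Slc9a8 (1454865_at, adjusted p = 0.551). The members were chosen with earlier results of these data known. The median log2 fold change was -0.21 over the 17 and -0.10 over all tested. The 3 NHE3+/+ and 3 NHE3-/- signals did not overlap for 9 of the 17, 6 of them lower, against 32.3% of all tested. Probe sets of 1 gene read the same RNA and are not independent of one another.

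**Figure D1:**
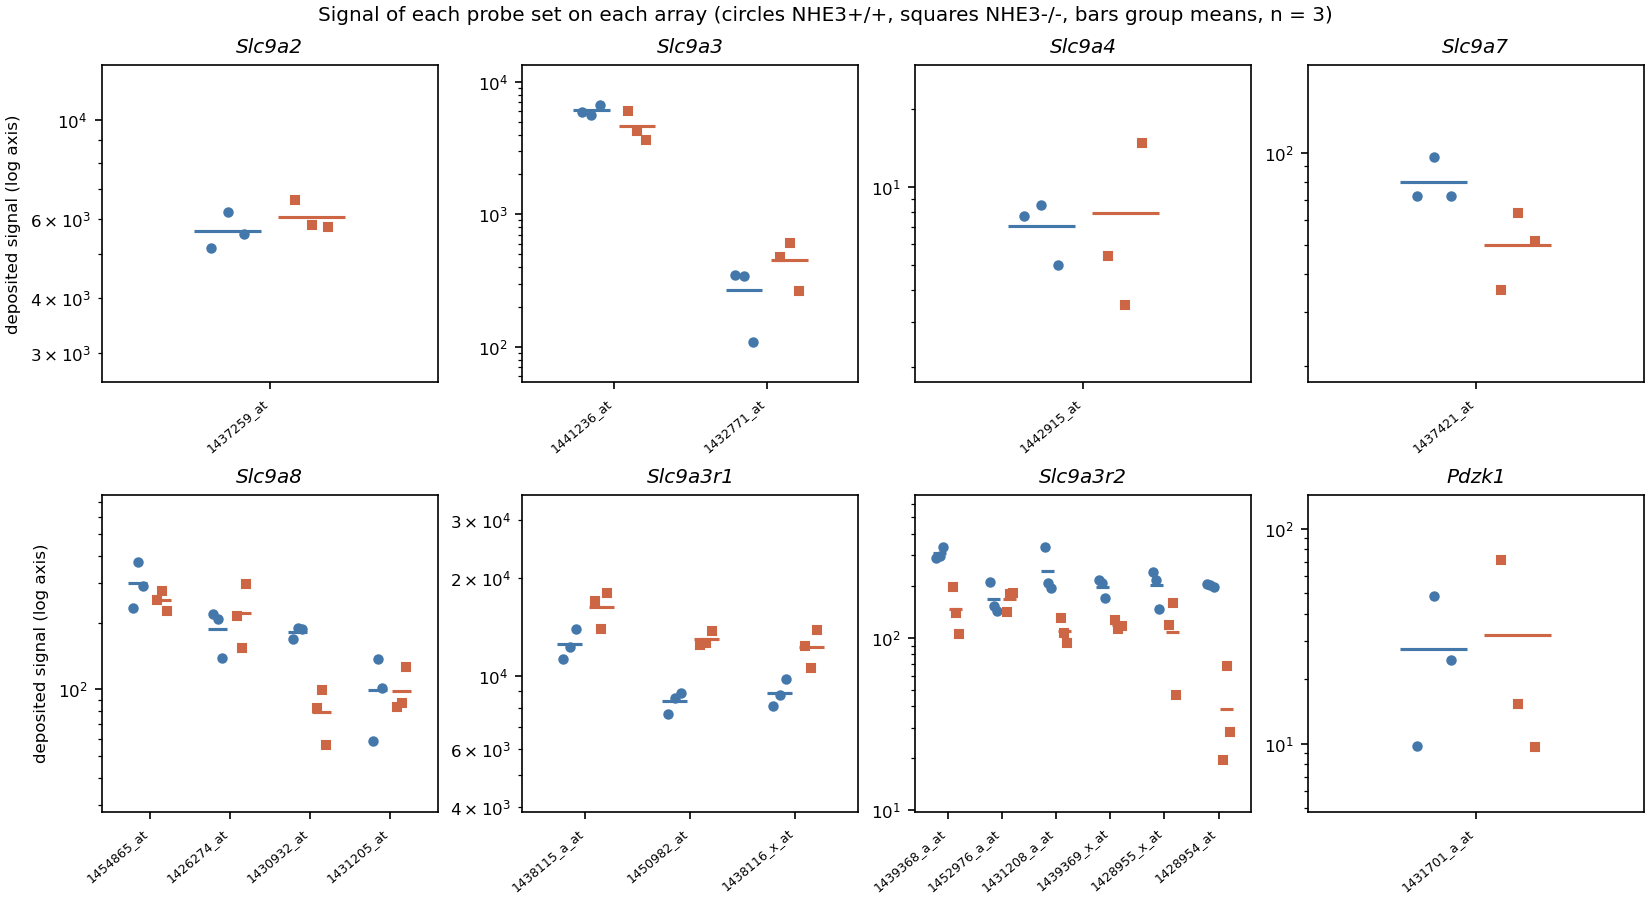
Deposited signal of all 19 member probe sets on each array, on a log axis, with circles for NHE3+/+, squares for NHE3-/- and bars for the group means (n = 3 each). The 3 Slc9a3r1 probe sets are higher on every NHE3-/- array, and 4 of the 6 Slc9a3r2 probe sets are lower on every one.

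Signal for Slc9a3, the gene of NHE3, remained on all NHE3-/- arrays. Probe set 1441236_at of Slc9a3 had signals of 5908, 5647 and 6669 on NHE3+/+ arrays 1, 2 and 3 and of 5970, 4266 and 3665 on NHE3-/- arrays 1, 2 and 3. Array 1 of the NHE3-/- group lay within the wild-type range and the other two below it. The log2 fold change was -0.42 (SE 0.16; 95% interval -0.77 to -0.06; limma adjusted p = 0.120). It was called without NHE3-/- array 1 (-0.61, adjusted p = 0.0199), with Xist as a covariate (-0.61, adjusted p = 0.0343) and with NHE3-/- array 3 alone (-0.72, adjusted p = 0.0274).

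Probe set 1432771_at of the same gene went the other way. Its signals were 345.6, 344.8 and 107.8 in wild type and 473.4, 608.7 and 264.9 in NHE3-/- colon, and the groups overlapped. The log2 fold change was 0.76 (SE 0.39; adjusted p = 0.230), so it was not called. Within each array, the log2 signal of the brighter probe set minus that of the dimmer was 3.98, 3.92 and 5.59 in wild type and 3.57, 2.75 and 3.64 in NHE3-/- colon. That difference was lower on every NHE3-/- array, by a mean log2 change of -1.17 (two-sided exact permutation p = 0.1, which 3 arrays a group cannot go below; this measure was chosen after its values were seen). The annotation cites a different source sequence for each. Where either lies relative to the disrupted stretch was not known here, so neither checks the genotype labels.

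NHE2, the other brush border exchanger with a bright signal, was not called. Slc9a2 had signals of 5165, 6230 and 5560 in wild type and 6629, 5825 and 5760 in NHE3-/- colon. The groups overlapped, and the log2 fold change was 0.10 (SE 0.11; adjusted p = 0.575). Its 95% interval ran from -0.13 to 0.34. With quantile normalization the value was -0.012.

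NHE8, an exchanger of apical and endosomal membranes, was read by 4 probe sets that disagreed. Probe set 1430932_at had 168.9, 189.9 and 186.8 in wild type and 82.2, 99.7 and 56 in NHE3-/- colon, without overlap (log2 fold change -0.96, SE 0.26; adjusted p = 0.0354). The brightest, 1454865_at, had 232.8, 375.3 and 292.9 against 252.6, 277.5 and 224.4 (log2 fold change -0.21, SE 0.21; adjusted p = 0.551). The other two had log2 fold changes of 0.19 (1426274_at, adjusted p = 0.682) and 0.03 (1431205_at, adjusted p = 0.962). The fall thus rested on 1 probe set of 4. Its call held in 5 of 15 alternatives and was lost without NHE3+/+ array 1 (-1.01), 2 (-0.94) or 3 (-0.95) or NHE3-/- array 1 (-0.99) or 3 (-0.80). It was also lost with medians set equal (-0.87) and with quantile normalization (-0.85).

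NHE7, the exchanger of the trans-Golgi network, was dim. Slc9a7 had 72.1, 96.5 and 71.8 in wild type and 35.4, 63.2 and 51.4 in NHE3-/- colon. All NHE3-/- signals lay below all wild-type signals, but the gene was not called (log2 fold change -0.46, SE 0.32; adjusted p = 0.375). The gene is X-linked, and Xist, the RNA of the inactive X chromosome in females, had signals of 207.7, 175.6 and 142.4 in wild type and of 1562, 1405 and 80.8 in NHE3-/- colon. Y-linked Eif2s3y had 1434, 1457 and 1809 against 933, 1088 and 1355, and Kdm5d 768, 654 and 784 against 341, 405.5 and 733. Y-linked Uty did not follow, with 240.6, 430 and 325.9 against 338.9, 316.8 and 450.6 (log2 fold change 0.16). Xist and these Y-linked genes were not called. Y-linked signal was thus present on all 6 arrays, the Xist-high arrays 1 and 2 of the NHE3-/- group included, and whether an array pools animals is not stated. The part of the Xist and Y-linked differences in the Slc9a7 values was not tested on its own. With Xist as a covariate Slc9a7 was not called. Another probe set names Slc9a7 together with 6330509M05Rik and was left out.

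NHE4 and NHERF3 did not pass the filter and were not tested. Slc9a4, the neighbour of Slc9a2 in the genome, had signals between 3.5 and 14.8 over the 6 arrays. Pdzk1, a scaffold with several PDZ domains that binds apical transporters, had 9.7, 48.8 and 24.4 in wild type and 71.7, 15.2 and 9.6 in NHE3-/- colon. Both genes overlapped between genotypes, and NHE3-/- array 1 had the highest Pdzk1 signal.

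NHERF1 rose. Probe set 1450982_at of Slc9a3r1 had 7692, 8582 and 8908 in wild type and 12508, 12652 and 13762 in NHE3-/- colon. Every NHE3-/- array exceeded every wild-type array, with means of 8394 ± 629 and 12974 ± 686 (SD, n = 3 each). The log2 fold change was 0.63 (SE 0.10; adjusted p = 0.00284), 1.55-fold on the scale of log2(signal + 31.4). The call held without each of the 6 arrays in turn (0.57 to 0.67) and was lost without a mean-variance trend (adjusted p = 0.0513).

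The other Slc9a3r1 probe sets, which cite 1 common source sequence, moved the same way by less. Probe set 1438116_x_at had 8122, 8774 and 9835 against 12353, 10626 and 13875, with a fitted difference of 0.46 on the log2 scale (SE 0.12; adjusted p = 0.0329). The brightest, 1438115_a_at, had 11336, 12286 and 13937 against 16952, 13999 and 17932. Its groups did not overlap, but it was not called (0.38, SE 0.12; adjusted p = 0.0681). The call of 1438116_x_at held in 9 of 16 alternatives. It was lost without NHE3+/+ array 1 (0.39) or 2 (0.45) or NHE3-/- array 1 (0.45) or 3 (0.37). It was also lost with quantile normalization (0.27), with no filter and without a mean-variance trend. A call of 1438115_a_at was gained without NHE3-/- array 2 (0.48), with medians set equal (0.47) and with Xist as a covariate (0.48).

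NHERF2 fell, on 3 of its 6 probe sets, at far dimmer signals than those of NHERF1. By mean log2 value its probe sets ranked from the 49.5th percentile (1428954_at) to the 63.7th (1439368_a_at). Those of NHERF1 ranked from the 98.6th to the 99.0th. Probe set 1428954_at of Slc9a3r2 had the largest log2 fold change of the members tested, with 205.5, 202.1 and 197.3 in wild type and 19.5, 68.3 and 28.3 in NHE3-/- colon. The wild-type arrays lay close together and all NHE3-/- arrays far below them, arrays 1 and 3 under the 25th percentile of all deposited values (31.4). The log2 fold change was -1.79 (SE 0.31; adjusted p = 0.00500). It was called in all 15 alternatives in which it was tested, with log2 fold changes from -2.55 (pseudocount of 1) to -1.14 (pseudocount of 100).

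The brightest NHERF2 probe set, 1439368_a_at, had 290.6, 297.9 and 336.4 in wild type and 197.5, 138.7 and 105.8 in NHE3-/- colon. These groups did not overlap, and the log2 fold change was -0.96 (SE 0.23; adjusted p = 0.0235). Probe set 1431208_a_at had 334.7, 206.9 and 193.3 against 129.6, 107.1 and 92.8, again without overlap (-0.94, SE 0.26; adjusted p = 0.0385). The call of 1439368_a_at held in 9 of 16 alternatives. It was lost without NHE3+/+ array 2 (-0.98) or 3 (-0.90) or NHE3-/- array 2 (-0.94) or 3 (-0.78) and with quantile normalization (-0.81). That of 1431208_a_at held in 4 of the 15 alternatives in which it was tested. It was lost without any 1 of the 6 arrays (-1.07 to -0.72), with medians set equal (-0.85) and with quantile normalization (-0.79). Both calls were also lost with no filter and without a mean-variance trend.

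Of the remaining NHERF2 probe sets, 1439369_x_at was lower on every NHE3-/- array (log2 fold change -0.61; adjusted p = 0.100) and 1428955_x_at overlapped (-0.81; adjusted p = 0.148). The latter was called with Xist as a covariate (-1.31) and with NHE3-/- array 3 alone (-1.56). Probe set 1452976_a_at was not called: it had 210.6, 152.8 and 143.2 in wild type and 141.1, 179.1 and 182.4 in NHE3-/- colon, with a 95% interval of the log2 fold change from -0.51 to 0.51. It cites the same source sequence as 1428954_at, the probe set with the largest fall. Which transcripts each probe set reads was not known here.

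**Figure D2:**
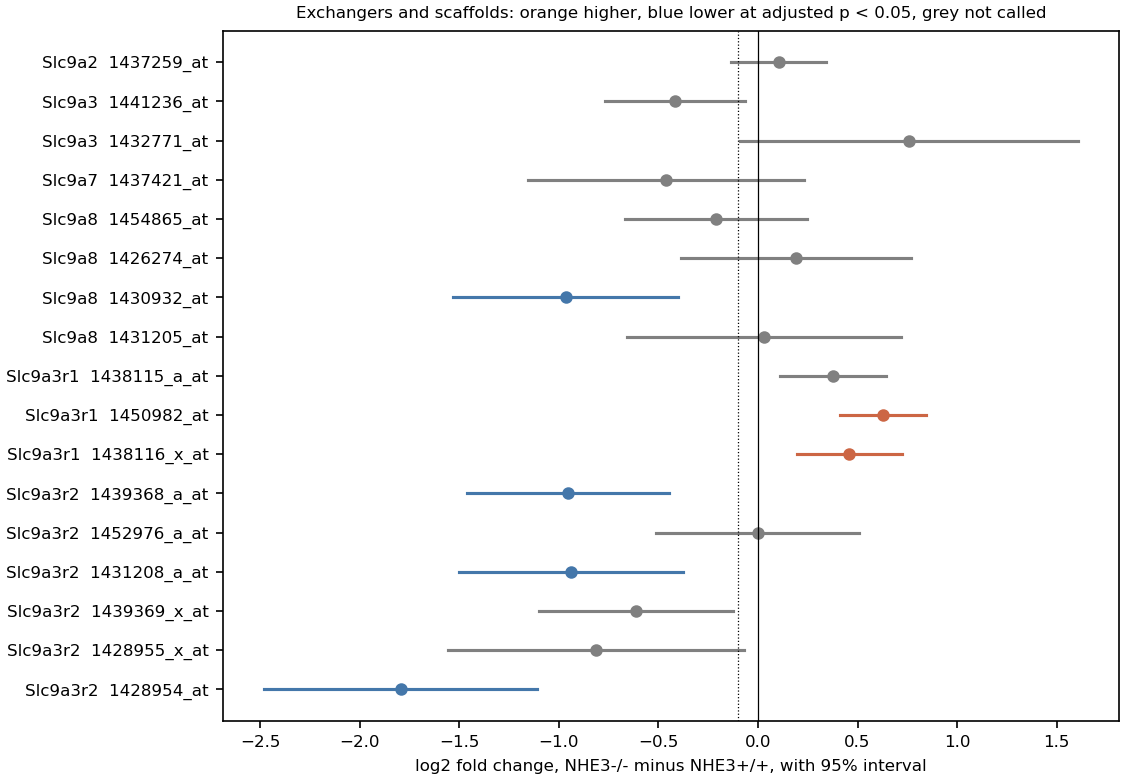
Log2 fold change (NHE3-/- minus NHE3+/+, 3 arrays each) of the 17 member probe sets tested, with unadjusted 95% intervals; a dotted line marks the median of all probe sets, -0.10. The Slc9a3r1 probe sets lie right of 0, 5 of the 6 Slc9a3r2 probe sets lie left of it, and 1452976_a_at lies on it.

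**Figure D3:**
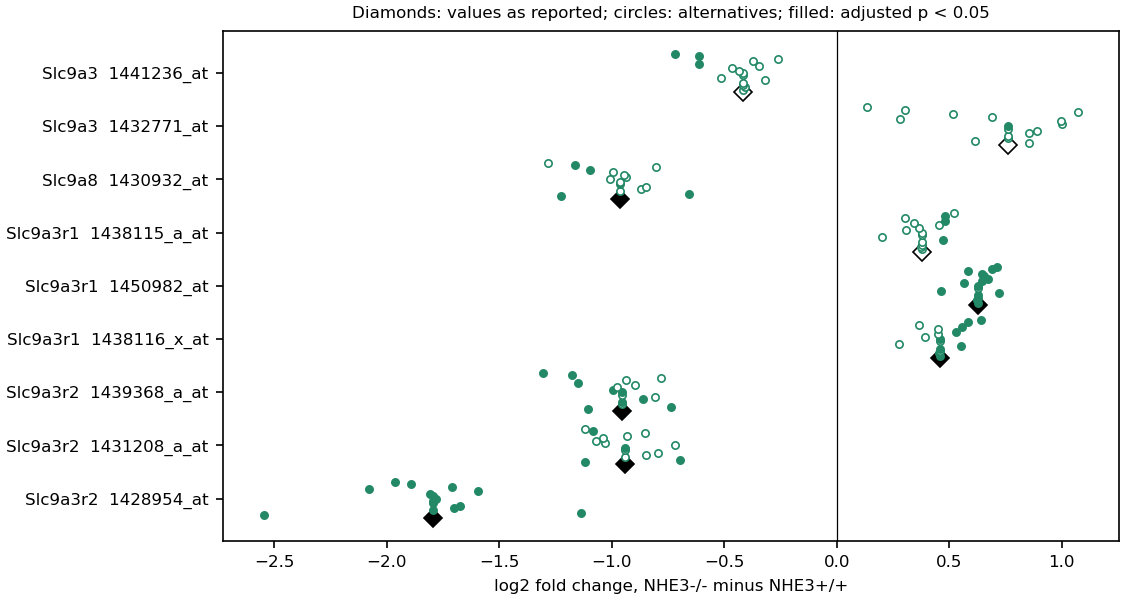
Log2 fold change of the called member probe sets, both Slc9a3 probe sets and all Slc9a3r1 probe sets as reported (diamonds) and under each alternative (circles), filled where adjusted p was under 0.05; circles are spread vertically for legibility. No point of these 9 probe sets crosses 0, and 1450982_at and 1428954_at keep the most filled circles.

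In whole tissue, fewer cells of a type and less RNA per cell cannot be told apart, so cell type markers are given beside these values. Epithelial markers (Epcam, Cdh1, Vil1 and keratins) summed to signals of 160438 to 183978 in wild type and 169231 to 198544 in NHE3-/- colon; of 7, 1 rose (Vil1, 0.41) and 1 fell (Krt18, -0.81). Markers of absorptive colonocytes summed to 129204 to 164437 and 178066 to 234183, without overlap. Of these 7, 4 rose (Car4, Slc26a3, Aqp8 and Slc51b), where 13.9% of all genes tested were called in either direction. This list was chosen with earlier results of these data known, so the shares are no test of enrichment. Car4 and Slc26a3 are also counted among the salt absorption genes described further on, and Car1 (0.05), Ceacam1 (0.16) and Ceacam20 (0.41) were not called. Endothelial markers, where NHERF2 is also known, were dim: 5 of 8 passed the filter and 0 were called, with sums of 687 to 853 and 639.8 to 732. The log2 fold changes of those tested ran from -0.55 (Vwf) to 0.58 (Kdr). Of those not tested, Tek was lower on every NHE3-/- array (67.2, 73.5 and 64.6 against 20.2, 26.3 and 23.2, or -0.87). Pecam1 (-0.85) and Cdh5 (-0.06) overlapped. The absence of calls therefore does not show that endothelial signal was unchanged. Of 7 fibroblast and matrix markers 1 fell, Vim (-0.86), with sums of 3910 to 4976 and 3418 to 4175. Their part in the scaffold values was not tested.

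Other marker lists bear on what the tissue held. Of 6 smooth muscle markers tested, 0 were called; over the 6 arrays Acta2 lay between 779.5 and 1324, Actg2 between 115.9 and 427.5, Smtn between 137.3 and 261.6, Tagln between 13.8 and 282.5, Myh11 between 74.2 and 186.2 and Des between 55.2 and 151.8. Cnn1 did not pass the filter. By mean log2 value, the measure of the filter, those tested ranked from the 50.5th percentile (Des) to the 85.6th (Acta2). The epithelial markers Krt8 and Epcam ranked at 99.97 and 99.7. How much of the muscle wall the RNA held was not tested. No kidney tubule marker passed the filter, and of 2 tested stomach markers and 6 small intestinal ones 0 were called. Of 3 tested pancreas markers 1 fell (Clps, log2 fold change -2.36). Of 4 adipose markers 3 fell (Fabp4 -2.08, Adipoq -1.77 and Lpl -1.39) and Cidec rose (0.97). By the same rule 13.9% of all genes tested were called in either direction. The part of these differences in the member values was not tested.

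The remaining exchangers were sparsely read. Slc9a5, an exchanger best known from brain, was the 1 gene that passed the filter of the 4 read on this list, and it was not called (log2 fold change -0.47, SE 0.31; limma unadjusted p = 0.156, adjusted p = 0.353). Slc9a9, Slc9b1 and Slc9b2 were below the filter. The absence of calls in this list therefore describes 1 gene.

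Among regulators and binding partners of NHE3, 3 of 20 tested genes rose and 3 fell, with a median log2 fold change of 0.04. By the same brightest probe set per gene, 13.9% of all 12553 genes tested were called. As the list was chosen with earlier results of these data known, this is no test of enrichment. Sgk1, the corticosteroid-induced kinase that stimulates NHE3, rose from 12451, 8764 and 10993 to 22368, 21255 and 19933, or by 0.99 on the log2 scale (SE 0.13; adjusted p = 0.000855). Pdzd3, a further PDZ scaffold of this family also called NHERF4, rose from 475.8, 494.4 and 458.7 to 741, 849.9 and 747.7 (0.67, SE 0.14; adjusted p = 0.0109). Both were separated without overlap and kept their calls without each array in turn. Dpp4, a brush border peptidase found in complexes with NHE3, rose by 0.49 (SE 0.12; adjusted p = 0.0271) by its brightest probe set, while its other 3 tested probe sets had 0.45, -0.03 and -0.12 and were not called.

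The 3 partners that fell have other roles. Msn, moesin, which links membranes to actin and is known mainly from leukocytes and endothelium, had -0.99 (SE 0.25; adjusted p = 0.0269) by its brightest probe set. The other Msn probe set overlapped and was not called (-0.25; adjusted p = 0.619). Prkg2, the cGMP-dependent kinase that inhibits NHE3 through NHERF2, had 2125, 1438 and 2301 in wild type and 1327, 997.6 and 1205 in NHE3-/- colon (-0.70, SE 0.18; adjusted p = 0.0294). A second Prkg2 probe set was also called (-0.80) and the remaining one was not (-0.44; adjusted p = 0.0522). Prkca, protein kinase C alpha, had -0.59 (SE 0.14; adjusted p = 0.0213), while its other two tested probe sets had 0.16 and -0.03 and were not called.

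Ezr, ezrin, the actin linker that NHERF1 and NHERF2 bind, had 13834, 13253 and 13154 in wild type and 14716, 13798 and 14521 in NHE3-/- colon and was not called (0.10; 95% interval -0.10 to 0.29). Gucy2c, the guanylin receptor upstream of Prkg2, was lower on every NHE3-/- array but not called (-0.26; adjusted p = 0.142). Chp2, a calcineurin-like subunit of exchangers, was higher on every NHE3-/- array and not called (0.53; adjusted p = 0.0581). Calls were lost for Msn without NHE3+/+ array 2 (-0.74) or NHE3-/- array 2 (-1.02) or 3 (-0.80), for Prkg2 without NHE3+/+ array 1 (-0.63) or 3 (-0.57) or NHE3-/- array 2 (-0.59) or 3 (-0.72), for Prkca without NHE3+/+ array 2 (-0.54) or 3 (-0.52) or NHE3-/- array 1 (-0.62) or 3 (-0.53), and for Dpp4 without NHE3+/+ array 2 (0.44) or 3 (0.50) or NHE3-/- array 2 (0.42) or 3 (0.50). The calls of Prkg2 (-0.61) and Prkca (-0.50) were also lost with medians set equal, and that of Msn with quantile normalization (-0.85).

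Genes that work beside NHE3 in salt absorption, or are carried by NHERF scaffolds, gave 5 of 11 tested members higher and 0 lower. Their median log2 fold change was 0.54. Of all genes tested, 13.9% were called in either direction. The list was chosen with earlier results of these data known, so setting it beside that share is no test of enrichment. Slc26a3, the chloride-bicarbonate exchanger that pairs with NHE3, had 19368, 22371 and 20074 in wild type and 29803, 31847 and 41274 in NHE3-/- colon (0.72, SE 0.13; adjusted p = 0.00535). The carbonic anhydrases Car2 (0.50, SE 0.12; adjusted p = 0.0225) and Car4 (0.93, SE 0.15; adjusted p = 0.00299), which supply bicarbonate and protons, rose too. Slc15a1, the proton-coupled peptide transporter, which depends on the acid that exchangers leave outside the cell, had 885.3, 891.4 and 953.7 against 1536, 1728 and 2460 (1.01, SE 0.16; adjusted p = 0.00333). Slc34a2, a phosphate transporter, rose by 0.95 (SE 0.21; adjusted p = 0.0174). Cftr, the chloride channel that binds NHERF1, was not called (-0.18; adjusted p = 0.418). Car2 lost its call without NHE3+/+ array 1 (0.50) or 3 (0.45) or NHE3-/- array 3 (0.38), and Slc34a2 without NHE3+/+ array 2 (1.00) or NHE3-/- array 1 (0.85).

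**Figure D4:**
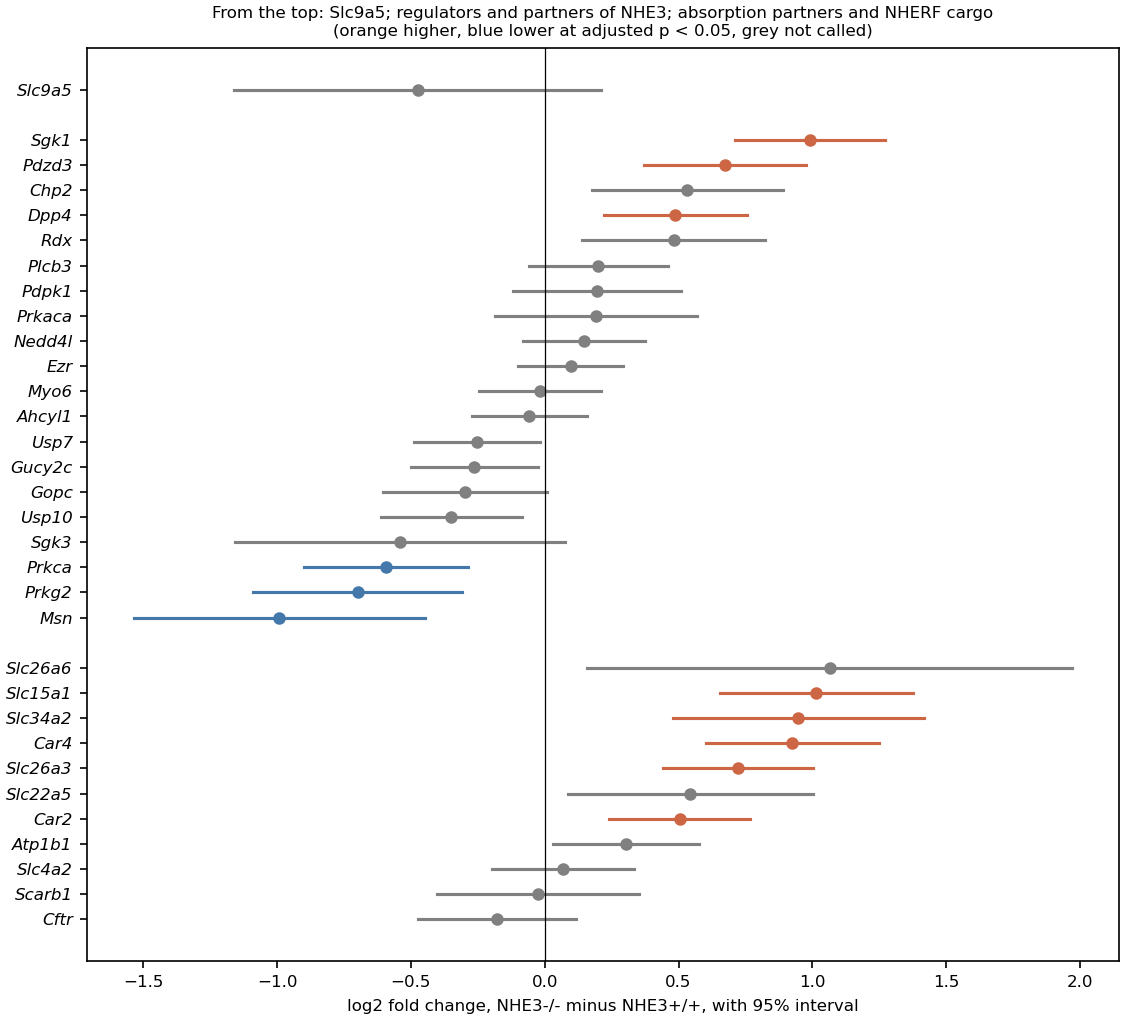
Log2 fold change (NHE3-/- minus NHE3+/+, 3 arrays each) with unadjusted 95% intervals for the tested genes of the 3 pathway lists, 1 brightest probe set a gene. In the lowest block the 5 called genes all lie right of 0, whereas the middle block holds 3 called on each side.

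For some of these genes the brightest probe set was not called and another was. Atp1b1, the beta subunit of the sodium pump, had 0.30 (adjusted p = 0.142) by its brightest probe set and 0.81, 0.55 and 0.47, all called, by others. A second probe set of the carnitine transporter Slc22a5 was called at 0.73, of the ubiquitin ligase Nedd4l at -0.79 and of the deubiquitinase Usp7 at -0.97. The Nedd4l probe sets disagreed in direction. Its brightest had 0.15, with every NHE3-/- array above every wild-type array, and was not called (limma adjusted p = 0.392).

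Around Slc9a3 on its chromosome, 3 of 15 tested genes among the 10 neighbours on each side were called, against 13.9% of all genes. Slc6a19, the brush border carrier of neutral amino acids, had 101.6, 129.3 and 162.9 in wild type and 1812, 1370.5 and 1359.5 in NHE3-/- colon (3.25, SE 0.19), and a second probe set had 3.00. Sdha, a subunit of mitochondrial complex II, rose by 0.47 (SE 0.09; adjusted p = 0.0102). Tppp, which binds tubulin, fell by 0.72 (SE 0.20; adjusted p = 0.0438) and kept its call without NHE3-/- array 1 but lost it without NHE3+/+ array 1 (-0.57), 2 (-0.84) or 3 (-0.74) or NHE3-/- array 2 (-0.50) or 3 (-0.79). Cast was not called by its brightest probe set (0.12) but was by another (0.70, adjusted p = 0.00638). The called genes of the immediate surroundings thus held both directions, the lower one by Tppp alone.

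Among 22817 tested probe sets that name 1 gene, those whose log2 signals followed the brighter Slc9a3 probe set most closely over the 6 arrays read Zfp319 (Pearson r = 0.996), Arrb2 (0.991) and Pi4ka (0.989). The closest to the brightest Slc9a3r2 probe set read Cd99l2 (0.998), Samd5 (0.997) and Uxs1 (0.997). With 6 arrays and so many candidates these are descriptions of likeness only, and the arrays share their genotype groups.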

How the data were processed

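Whole-colon RNA was measured on 6 single-label Affymetrix MOE430 2.0 arrays, 3 per genotype. The deposited values are linear intensity values per probe set, made by the authors with GCOS, per the submitters' processing notes; neither its settings nor detection calls are stated in the sources used here. Each array had a 2% trimmed mean of 500. Precision is limited by how many arrays there are.

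From these, log2(signal + 31.4) was computed (the 25th percentile of all values). Removing 64 array controls and every probe set whose mean log2 value fell below the 40th percentile left 27024. NHE3-/- was compared with NHE3+/+ by limma 3.58.1 in R 4.3.3 (lmFit, eBayes with trend, genotype only, two-sided), with Benjamini-Hochberg adjustment over all probe sets tested and a threshold of 0.05. SE and 95% intervals are limma's; fold changes on this scale understate those of dim probe sets. In data simulated for this comparison over 27024 probe sets, the fit recovered 28% of changes of log2 size 1 and 76% of size 2. Only 200 probe sets were changed there, against 3027 called in the data. The adjusted p depends on that number, so these rates do not give the recovery in the data.

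Names came from the platform annotation, where 34958 probe sets give 1 gene, updated by gene ID through RefSeq GRCm38.p6 (34754 matched), which also gave neighbours and promoter windows. Named were every member, the called genes of the pathway lists (up to 10 a list, by brightest probe set), called neighbours, and the 3 genes most like Slc9a3 and each member called by its brightest probe set. Members and lists were chosen with earlier results of these data known, and the endothelial and fibroblast lists and the further named probe sets and genes after values were seen. Alternatives were other pseudocounts, filters and scalings, no trend, the replicate block, Xist as a covariate, and arrays left out.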

Additional observations from a re-analysis of the deposited data

How the results depend on the processing

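Under other pseudocounts (1 and 100), both called NHERF1 and all 3 called NHERF2 probe sets kept direction and call. With medians set equal, 1595 probe sets over the array were higher and 839 lower, against 1342 and 1685 as reported; 2 member probe sets and 1 pathway gene were then lower. Equal medians moved the median of all tested from -0.10 to -0.01 and quantile normalization to -0.02. With quantile normalization 1 member probe set was higher and 1 lower, and with no filter likewise 1 and 1; a filter at the 60th percentile left 1 lower. Without a mean-variance trend 511 probe sets were higher and 558 lower, with 0 member probe sets higher and 2 lower, and 4 pathway genes higher and 0 lower. NHE3-/- array 3 alone, whose Xist signal was like wild type, gave 767 higher, and 1 pathway gene lower; its lone sample is assumed to vary like the other group.

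Leaving out 1 array gave 839 to 1211 higher and 775 to 1385 lower over the array, 1 to 3 member probe sets higher and 1 to 3 lower, and 0 to 2 pathway genes lower. Values that changed sign were all uncalled. Slc9a2 was -0.012 with quantile normalization. Slc9a3r2 1452976_a_at was 7.7e-05 with a pseudocount of 1, 0.093 with medians set equal, 0.16 with quantile normalization, 0.056 with Xist as a covariate, 0.11 with NHE3-/- array 3 alone and -0.093 to 0.14 with 1 array left out. Slc9a8 1426274_at ran from -0.017 to 0.40 and 1431205_at from -0.21 to 0.24 with 1 array left out. The cause was not tested. Replicate numbers share only a number (correlations of same-numbered deviations 0.0264, -0.0376 and 0.0034); with the replicate block 1156 probe sets were higher and 1384 lower, 3 member probe sets higher and 3 lower, Slc9a3 1432771_at was called (0.76), and the calls of Slc9a8 1430932_at (adjusted p = 0.0569) and Dpp4 (adjusted p = 0.0583) were lost. Signals near the 25th percentile (31.4) limit Slc9a4, Slc9a7 and Pdzk1. They also limit the size of the fall of Slc9a3r2 1428954_at, whose NHE3-/- signals were 19.5, 68.3 and 28.3. Its log2 fold change was -2.55 with a pseudocount of 1 and -1.14 with 100.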
